A study of Rattus norvegicus with 3 samples.

Results

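The 39 genes described here are interferon-stimulated genes, taken as a fixed list of names from the 20896 gene names of the series, and all 39 names were present in each of the 3 cluster tables. Interferons bind receptors on the cell surface, and the receptor kinases then phosphorylate STAT proteins. A complex that contains STAT2 and IRF9 binds interferon-stimulated response elements in the promoters of these genes, and type II interferon also acts through gamma-activated sites. The encoded proteins sense viral RNA, block steps of viral replication, tag other proteins with the ubiquitin-like ISG15 or prepare antigens for display, and in bone interferon signaling is known for restraining the formation of osteoclasts. By role the list held 5 signal transducers and interferon regulatory factors, 9 RNA sensors and RNA-directed enzymes, 11 antiviral effectors, 6 genes of the IFIT and IFI families, 5 genes of ISG15 conjugation and ADP-ribosylation and 3 genes of antigen processing.

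For its single-cell part, the study used 24 SD rats in 3 groups and sequenced cells from the cartilage and subchondral bone of their mandibular condyles. Sham rats were given Vector AAV and no unilateral anterior crossbite (UAC), a dental procedure that alters loading of the temporomandibular joint, the UAC group was given Vector AAV together with the crossbite, and the last group was given miR-330 AAV together with the crossbite. AAV was injected into the joint in every group, so no library came from condyles without AAV, and rat age was not stated in the labels. The 16 condyles of 8 rats were pooled into 1 library per group, so rats cannot be told apart and no value below could be checked in a replicate. All values are given in the order sham, UAC and UAC with miR-330 AAV, and the last library is called the miR-330 library.

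Levels are unique molecular identifiers (UMIs) scaled to 1000000 in each library, or in each cluster for levels by cluster (CPM), with exact Poisson 95% intervals that cover counting error alone, and levels are called apart where the intervals do not overlap. The 3 libraries held 77668015, 92629658 and 97255383 UMIs, 19680, 20166 and 20275 genes, and 15, 18 and 19 clusters. Each library was clustered by itself, and the tables do not say whether the 39 members took part in the clustering, so the levels by cluster are a description. Clusters were named from markers of 19 cell classes, and these names may differ from those of the authors. Shares are shares of UMIs and not of cells, so fewer cells of a type and less RNA per cell cannot be told apart, and doublets and free RNA were not treated. Counts came from the 3′ ends of transcripts, so levels are compared between clusters and libraries and not between genes.

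The labels list chondrocytes and osteoclasts as the cell types. A single chondrocyte-like cluster per library (sham 12, UAC 16, miR-330 17) had 16, 17 and 18 of 20 chondrocyte markers enriched, with 11.6%, 6.46% and 6.05% of all UMIs, and it also held osteogenic and fibroblast markers. No cluster was named osteoclast, and the summed level of the 7 osteoclast markers listed was 239, 226 and 194. Most UMIs lay in hematopoietic clusters: B-like clusters held 40.9%, 34.9% and 37.8%, and neutrophil-like clusters held 10.0%, 12.3% and 10.6%. The cluster richest in macrophage markers (sham 15, UAC 9, miR-330 10) had 13, 11 and 12 of 15 of them, but its leading genes included the early granulocyte gene Fcnb and no macrophage marker, so it is called the macrophage-marker cluster. A T and NK-like cluster was found in UAC (17) and in the miR-330 library (19) and not in sham, and a mast and basophil-like cluster in UAC alone (13). The erythroid-like clusters sham 14 and miR-330 5 had 8 and 7 of 12 erythroid markers enriched and were mixed. Sham 14 also had 7 mast and basophil markers enriched, and miR-330 5 had 5 plasma cell markers, so they may not hold the same cells.

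Summed over the 39 members, the level was 1108 (1101 to 1115) in sham, 1152 (1145 to 1159) in UAC and 1239 (1232 to 1246) in the miR-330 library. Among clusters the summed level was highest in a neutrophil-like cluster of each library, at 3851 (3782 to 3921) in sham 8, 5954 (5852 to 6056) in UAC 8 and 6161 (6063 to 6260.0) in miR-330 6. These clusters are called the peak clusters, and they held 13.6%, 12.4% and 12.5% of the member UMIs with 3.93%, 2.39% and 2.51% of all UMIs. The macrophage-marker cluster came next in sham at 1575, and in UAC and the miR-330 library it stood at 1435 and 1563 beside the Ms4a1-high B-like clusters at 1437 and 1599. The chondrocyte-like cluster was the lowest in sham and the miR-330 library, at 414 and 376, and in UAC it was at 483 with the mast and basophil-like cluster lower at 382.

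**Figure D1:**
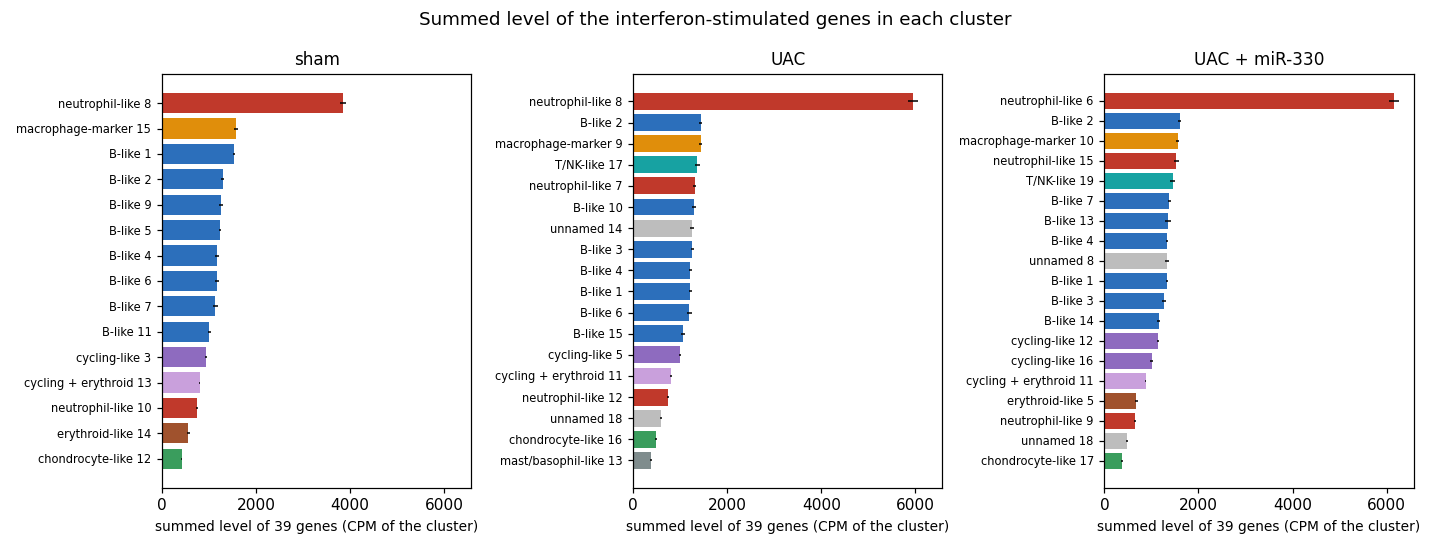
Summed level of the 39 interferon-stimulated genes in each cluster of the 3 libraries, in UMIs per 1000000 UMIs of the cluster with 95% counting intervals. The highest bars are the peak clusters at 3851, 5954 and 6161.

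The neutrophil-like clusters differed in granule genes. Ngp, a secondary granule gene of developing neutrophils, was at 3299, 192 and 87.4 in the peak clusters but at 32119.7, 47036 and 33722 in the Ngp-high neutrophil-like clusters sham 10, UAC 12 and miR-330 9. The receptor gene Cxcr2 went the other way, at 183, 242 and 393 in the peak clusters and 52.2, 56.2 and 124 in the Ngp-high ones. UAC 7 and miR-330 15 lay between them in Ngp, and no such cluster was separate in sham. The summed member level was 741, 744 and 659 in the Ngp-high clusters and 1309 and 1528 in the intermediate ones, below the library level in the Ngp-high ones and above it in the others. The peak cluster made up 39.1%, 19.4% and 23.6% of the neutrophil-like UMIs, and with Ngp in sham 8 closer to the intermediate miR-330 15 (3899.6) than to the other peak clusters, the peak clusters may not hold the same cells. Relative to the rest of the library, the median log2 ratio over members in the peak cluster was 0.82, 0.76 and 1.06, beside -1.79, -1.57 and -1.55 over all genes.

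The members did not move together across clusters. Of the 39, 14 were at least doubled in the peak cluster of every library: Isg15, Isg20, Ifit1, Ifit2, Ifit3, Ifih1, Oas1a, Oas2, Oasl, Irf7, Usp18, Rsad2, Cmpk2 and Xaf1. Of all 14131 genes with at least 20 UMIs in every library 6.78% met this rule, and since the peak cluster was picked by the summed level of the members, the count of 14 is no test. In the opposite direction, Mx1, Trim25 and Bst2 were at or under 0.5 of the rest in every peak cluster, as were 55% of all genes, and the other 22 members met neither description. By the cell class of the highest cluster, 14 members were highest in neutrophil-like clusters in every library, against 6.33% of all genes, and 3 in the macrophage-marker cluster (Ifi27, Gbp2 and Samhd1), against 4.46%. A further 9 were highest in B-like clusters (Ifi35, Ifi44, Mx2, Stat2, Ddx58, Parp9, Parp14, Dtx3l and Trim25), against 22.5%, and the class differed between libraries for 13. The highest level was apart from every other class in all libraries for 10 of the 14 (not for Ifih1, Oas2, Usp18 and Psmb9), for all 3 and for 5 of the 9 (Mx2, Ddx58, Parp9, Parp14 and Trim25). The share of all genes apart in this way was not counted, so nothing is read from these counts. The heat map of members by cluster shows these blocks.

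**Figure D2:**
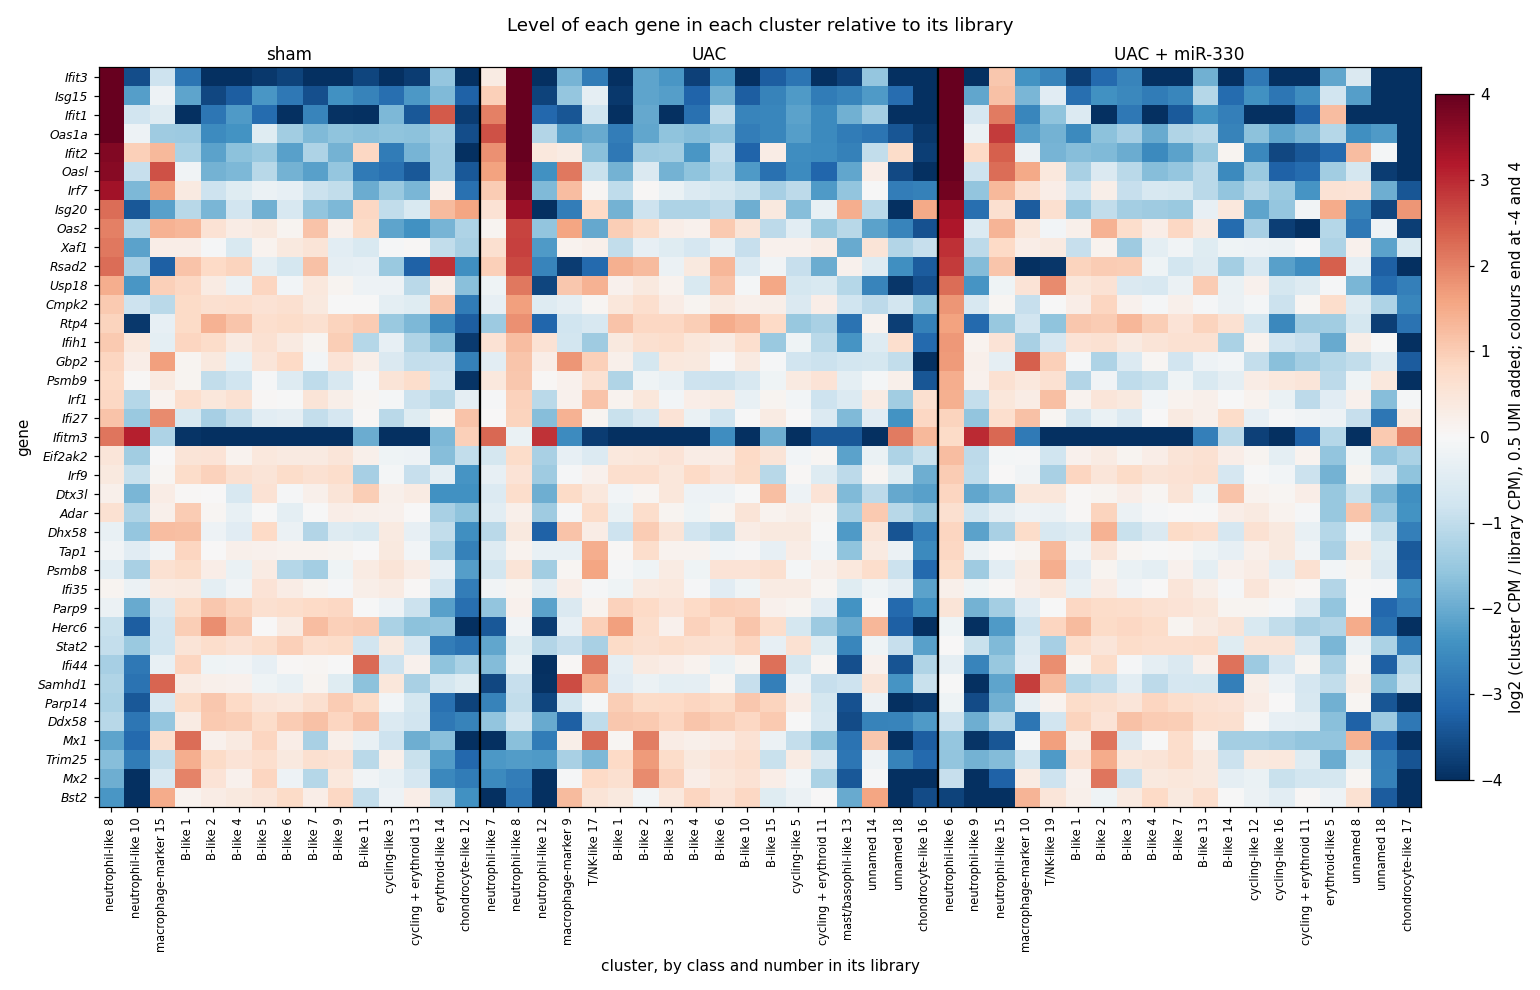
Level of each of the 39 members in each cluster of the 3 libraries, relative to its level in the whole library. Against the rest of the library, the log2 ratio in the peak cluster was 7.98, 7.68 and 7.98 for Ifit3 and -2.38, -2.93 and -3.75 for Bst2.

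Among the signal transducers and interferon regulatory factors, the summed level was 153, 147 and 151. Irf1, a transcription factor induced by type I and type II interferon, was at 62.4, 63.2 and 64.5. Stat2, the STAT protein of the interferon-stimulated complex, was at 45.6, 41.6 and 44.3, and Irf9, its DNA-binding partner, at 8.87, 7.503 and 11.2. Irf7, which amplifies type I interferon production, was at 28.8, 27.7 and 22.9, and Usp18, which removes ISG15 and damps receptor signaling, at 6.82, 6.70 and 8.57. These 5 genes split by cluster. Irf1 was spread widely, with 110.2, 118 and 173 in the peak clusters, 139.7 and 147 in the T and NK-like clusters and 48.9, 99.0 and 61.0 in the chondrocyte-like cluster. Stat2 was highest in B-like clusters, at 88.1 (78.6 to 98.5) in sham 6, 75.8 (66.8 to 85.7) in UAC 10 and 73.7 (63.2 to 85.5) in miR-330 3, against 5.88, 9.20 and 6.29 in the chondrocyte-like cluster. Irf7 was instead highest in the peak clusters, at 297, 378 and 331, with 89.2, 65.6 and 35.9 in the macrophage-marker cluster. Levels of Irf7 by cluster, and below those of Isg15, Oasl, Isg20, Samhd1, Gbp2, Mx1, Ifi44 and Herc6, are given after their values were seen.

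The RNA sensors and RNA-directed enzymes summed to 230.0, 246 and 278. Of the helicases that detect viral RNA, Ifih1 (MDA5) was at 28.9, 32.3 and 46.7, Ddx58 (RIG-I) at 11.6, 12.4 and 10.6 and Dhx58 (LGP2), which tunes the other helicases, at 5.79, 4.97 and 5.06. Trim25, a ubiquitin ligase that activates RIG-I, was at 77.2, 73.2 and 81.7. Eif2ak2, the kinase PKR that stops translation on double-stranded RNA, was at 43.1, 38.97 and 52.9, and Adar, which edits such RNA, at 16.7, 17.8 and 28.6. The oligoadenylate synthetase genes, whose products activate RNase L, were Oas1a at 23.9, 37.7 and 29.5 and Oas2 at 1.17, 0.939 and 1.16, and the related Oasl was at 21.5, 27.7 and 21.8. Oas1a has near-identical relatives in the rat genome, so the split of its reads among them is uncertain.

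By cluster, Trim25 was highest in the Ms4a1-high B-like clusters sham 1, UAC 2 and miR-330 2, at 211 (199.8 to 223), 239.6 (228 to 252) and 230.0 (219 to 241), and it was 23.6, 15.4 and 27.1 in the peak clusters. Ddx58, whose product Trim25 activates, was likewise highest in B-like clusters, and the rank correlation of Ddx58 and Trim25 over clusters was 0.68, 0.75 and 0.72. Eif2ak2 was broad, at 60.3, 64.6 and 124 in the peak clusters and 63.4, 66.9 and 79.8 in the highest B-like cluster. Oas1a was concentrated in the peak clusters, at 405 (383 to 429), 834 (797 to 873) and 670.4 (638 to 704), which held 66.5, 53.0 and 57.0 percent of its UMIs. In the intermediate neutrophil-like clusters Oas1a was at 218 in UAC 7 and 203 in miR-330 15, and in the Ngp-high ones at 20.6, 16.8 and 24.7. Oasl was at 269.6, 409 and 364 in the peak clusters and at 126, 120.5 and 63.0 in the macrophage-marker cluster. Adar was highest in the Ms4a1-high B-like cluster of sham, at 33.5, and in the unnamed clusters UAC 14 and miR-330 8, at 36.6 and 61.7. Those unnamed clusters held as many B markers as plasmacytoid dendritic (UAC 14) or dendritic (miR-330 8) markers.

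The 11 antiviral effectors summed to 219, 235 and 221. The dynamin-like GTPases Mx1 and Mx2 were at 13.5, 12.3 and 17.3 and 5.73, 4.63 and 6.54, and since they are close relatives their reads may be shared. Rsad2 (viperin), a radical SAM enzyme that makes a chain-terminating nucleotide, was at 7.06, 5.86 and 9.65, and Cmpk2, a nucleotide kinase encoded next to it, at 6.49, 5.84 and 7.70. Isg20, an RNA exonuclease, was at 9.90, 8.63 and 9.24, and Samhd1, which degrades deoxynucleotides, at 15.4, 21.1 and 28.7. These enzymes act on nucleotides or RNA, whereas the next effectors act at membranes. Bst2 (tetherin), which holds budding virions on the cell, was at 98.3, 106 and 94.5, and Ifitm3, which blocks membrane fusion in endosomes, at 32.9, 41.6 and 13.7. Rtp4, a chaperone of receptors, was at 13.6, 10.3 and 9.79, the guanylate-binding Gbp2 at 9.12, 12.3 and 14.5, and Xaf1, a pro-apoptotic partner of XIAP, at 6.98, 6.53 and 9.56.

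Bst2 was low in the peak clusters and high in the macrophage-marker cluster. Its level was 274 (257 to 292), 257 (244 to 269.9) and 242 (229.9 to 255) in the latter and 315 in UAC 14, the cluster with the plasmacytoid dendritic marker Siglech at 118, but 19.3, 14.004 and 6.98 in the peak clusters. Ifitm3 was highest in the Ngp-high neutrophil-like clusters, at 285 (270.1 to 301), 306 (291 to 322) and 108 (99.2 to 116), with 146, 34.8 and 23.0 in the peak clusters. Ifitm3 was also at 204 and 66.7 in the intermediate clusters UAC 7 and miR-330 15 and at 175 and 28.1 in the unnamed clusters UAC 18 and miR-330 18. The chondrocyte-like cluster also held Ifitm3, at 64.1, 103 and 55.2, while B-like clusters had at most 8.19, 10.6 and 6.38. Reads of Ifitm3 may be shared with Ifitm1 and Ifitm2, which are near copies. Rsad2 had its highest level in the erythroid-like cluster of sham, 51.6 (40.9 to 64.3), and in the peak clusters of UAC and the miR-330 library, 36.6 (29.1 to 45.5) and 66.9 (57.0 to 78.0), with 50.4 in the erythroid-like cluster of the latter. Samhd1 marked the macrophage-marker cluster at 77.1, 128 and 193, as did Gbp2 at 28.1, 41.6 and 76.7. Mx1 stood at 63.2, 50.8 and 76.5 in the Ms4a1-high B-like clusters against 2.95, 3.61 and 5.74 in the peak clusters. Isg20 reached 46.6, 91.3 and 96.0 in the peak clusters and 29.8, 24.6 and 31.4 in the chondrocyte-like cluster.

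Genes of the IFIT and IFI families summed to 157, 171 and 195. Ifit1, Ifit2 and Ifit3, which bind foreign RNA and each other, were at 2.30, 2.76 and 4.61, at 9.48, 12.4 and 22.7 and at 38.3, 48.7 and 44.0 in turn, and reads of Ifit1 may be shared with the near copy Ifit1bl. Ifi27, a small membrane protein, was at 59.1, 64.5 and 82.8. Ifi35, a leucine zipper protein, was at 34.7, 31.0 and 28.0, and Ifi44, a GTP-binding protein, at 12.8, 11.7 and 12.5. Of all members Ifit3 had the largest share of its UMIs in the peak cluster, with 91.2, 83.4 and 86.7 percent there, at a level of 889 (856 to 923), 1698 (1644 to 1753) and 1522 (1474 to 1572). Its next highest cluster was at 21.6 in sham (macrophage-marker), 61.4 in UAC 7 and 91.9 in miR-330 15. Ifit1 and Ifit2 were also high in the peak clusters, at 44.3, 79.5 and 126 and at 122, 218 and 409, but less concentrated there. The peak clusters held 75.4, 68.75 and 68.75 percent of the Ifit1 UMIs and 50.7, 42.0 and 45.2 percent of the Ifit2 UMIs. Over clusters, the rank correlation with Ifit3 was 0.45, 0.60 and 0.45 for Ifit1 and 0.675, 0.60 and 0.47 for Ifit2. Ifi27 differed, with 221, 169.7 and 186 in the macrophage-marker cluster, 129.8, 115 and 107 in the chondrocyte-like cluster and 129, 119 and 154 in the peak clusters. Ifi44 was highest in the Dntt-high B-like clusters sham 11, UAC 15 and miR-330 14, at 61.3, 53.9 and 56.3.

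ISG15 conjugation and ADP-ribosylation genes summed to 186, 194 and 246. Isg15, the ubiquitin-like modifier itself, was at 29.6, 33.8 and 29.0, and Herc6, its main conjugating ligase in rodents, at 35.8, 41.8 and 66.8. The mono-ADP-ribosyltransferase Parp14 was at 58.6, 59.9 and 85.3, and Parp9 at 53.5, 48.6 and 51.6 with its ubiquitin ligase partner Dtx3l at 8.63, 9.39 and 13.6. The modifier and its ligase were highest in different clusters. Isg15 was at 617, 1049 and 889.5 in the peak clusters, which held 81.9, 74.1 and 76.7 percent of its UMIs, while Herc6 there was at 19.3, 37.5 and 58.7. Herc6 peaked in the B-like clusters sham 2 (129) and UAC 1 (129.6) and in the unnamed cluster miR-330 8 (185). Parp14 was highest in B-like clusters as well, at 124 (115 to 135) in sham 2, 125 (114 to 138) in UAC 10 and 155 (146 to 165) in miR-330 4, and Parp9 at 113 (104 to 123), 94.1 (80.4 to 109) in UAC 6 and 91.9 (85.9 to 98.2) in miR-330 1. Both were low in the chondrocyte-like cluster, Parp14 at 4.43, 4.01 and 4.76 and Parp9 at 6.54, 8.86 and 7.48.

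The 3 genes of antigen processing summed to 163, 159 and 148. Psmb9 and Psmb8, catalytic subunits of the immunoproteasome, were at 124, 114 and 104 and at 2.83, 3.59 and 5.84, and Tap1, a subunit of the peptide transporter into the endoplasmic reticulum, at 36.5, 41.6 and 37.8. Psmb9 was highest in the peak clusters, in sham not apart from the cycling cluster with erythroid markers (13), at 213 (197 to 230.2), 239 (219 to 260.2) and 283 (262 to 305), and lowest in the chondrocyte-like cluster, at 8.09, 10.5 and 3.91. Tap1 was highest in the T and NK-like clusters, at 115 (101 to 129.7) in UAC and 91.8 (79.9 to 105) in the miR-330 library, and in sham, which had no such cluster, in the Ms4a1-high B-like cluster at 66.9 (60.7 to 73.7). Psmb8 followed Tap1, with 10.5 and 15.9 in the T and NK-like clusters and 4.64 in sham 1. The chondrocyte-like cluster had the lowest level of all 3 antigen processing genes in every library, with Tap1 at 5.54, 7.02 and 3.57 and Psmb8 at 0.554, 0.334 and 0.510.

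Rank correlations over clusters, given as a description over 15, 18 and 19 clusters that share a library and its clustering, were high for some pairs of members. Parp9 and Parp14 had 0.95, 0.91 and 0.92, Mx1 and Mx2 0.85, 0.86 and 0.79, Rsad2 and Cmpk2 0.89, 0.63 and 0.75, and Stat2 and Irf9 0.79, 0.76 and 0.82. With Isg15 the correlation was 0.85, 0.89 and 0.79 for Ifit3 and 0.70, 0.74 and 0.82 for Oasl, but -0.66, -0.13 and -0.30 for Ddx58. In the RefSeq gene table of the GRCr8 build, no other protein-coding gene lies between Ifit2 and Ifit3, Rsad2 and Cmpk2, Parp9 and Dtx3l, Parp14 and Dtx3l, Psmb8 and Tap1, or Psmb9 and Tap1. For Parp9 and Dtx3l the rank correlation was 0.23, 0.47 and 0.51 and the Pearson correlation 0.76, 0.73 and 0.83, and for Psmb9 and Tap1 these were 0.10, 0.24 and 0.51 and 0.74, 0.64 and 0.85.

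Promoter sequences were compared between members by their pattern across clusters. RefSeq promoters (GRCr8, 250 bases before to 50 after the gene start) were found for 29 members, and Isg15, Ifit1, Ifit2, Mx2, Oas2, Usp18, Ddx58, Dhx58, Rtp4 and Adar had no entry. The interferon-stimulated response element, searched on both strands as GAAA, any 2 bases and GAAA, was found in 17 of the 29 (58.6%), against 3.92% of all 33469 promoters. The gamma-activated site, searched on both strands as TTC, any 3 bases and GAA, was found in 8 of the 29 (27.6%), against 8.87% of all promoters. By pattern, the response element was in 7 of 9 members doubled in the peak clusters, in 1 of 3 of the group with Bst2, and in 9 of 17 others, whereas the gamma-activated site was in 1 of 9, 1 of 3 and 6 of 17. A match describes the letters alone, and Bst2, low in every peak cluster, carried 2 matches as Oas1a did. The stretches below show members high in the peak clusters (Ifit3, Oas1a, Irf7 and Ifih1) beside those high elsewhere (Bst2 and Parp14), in lower case with the response element matches in capitals, 5′ to 3′ on the strand of the gene. They lie at chr1:241527232-241527325, plus strand (Ifit3), chr12:41330375-41330465, plus strand (Oas1a), chr1:205800033-205800142, minus strand (Irf7), chr3:67683969-67684077, minus strand (Ifih1), chr16:18255033-18255148, minus strand (Bst2) and chr11:78408008-78408117, plus strand (Parp14).
Ifit3: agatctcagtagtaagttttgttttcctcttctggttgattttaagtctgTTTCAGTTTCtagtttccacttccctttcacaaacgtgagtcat
Oas1a: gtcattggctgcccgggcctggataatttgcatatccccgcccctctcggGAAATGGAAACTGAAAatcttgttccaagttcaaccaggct
Irf7: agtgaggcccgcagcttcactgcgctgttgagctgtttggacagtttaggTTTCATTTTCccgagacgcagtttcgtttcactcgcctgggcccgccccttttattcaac
Ifih1: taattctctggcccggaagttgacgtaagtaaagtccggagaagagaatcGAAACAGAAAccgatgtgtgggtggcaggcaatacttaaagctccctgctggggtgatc
Bst2: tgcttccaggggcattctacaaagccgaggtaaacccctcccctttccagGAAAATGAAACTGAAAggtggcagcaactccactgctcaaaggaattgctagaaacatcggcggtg
Parp14: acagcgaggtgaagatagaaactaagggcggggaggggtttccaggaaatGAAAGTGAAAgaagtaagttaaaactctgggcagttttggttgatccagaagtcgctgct

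Between libraries, a gene was called changed where its level differed at least 1.5-fold with intervals apart, and genes were compared where the libraries together gave 20 UMIs or more. Brackets after a pair of counts give the shares of all genes called higher and lower under the same setting. The scale of the deposited mean counts adds 0.20 to every log2 ratio of UAC against sham and 0.24 to every ratio of miR-330 against UAC. For UAC against sham all 39 members could be compared, and 1 was called higher, against 5.85% of all 15643 genes, and none lower, against 4.86%. The median log2 ratio of the members was 0.02, beside -0.02 for all genes, with 20 members above 0 and 19 below, and on the deposited scale 3 were called higher and none lower (all genes 10% and 2.8%). Oas1a was the gene that rose, from 23.9 (22.9 to 25.1) to 37.7 (36.4 to 38.9), a log2 ratio of 0.65 (0.57 to 0.73). With 4 cell classes weighted equally (B-like, neutrophil-like, chondrocyte-like and cycling-like), no member was called in either direction (all genes 2.9% and 1.39%). All other clusters, among them the macrophage-marker cluster, were left out of that setting. Without the neutrophil-like clusters 2 members, Ifit3 and Ifitm3, were called higher and none lower (all genes 6.82% and 4.56%). The ratio of Oas1a was then -0.039, and within the neutrophil-like clusters it was 0.57, under the fold required. Within those clusters Oas1a was called higher when centred on all genes, on the deposited scale and when scaled without neutrophil markers (all genes 2.17%, 4.59% and 1.75%). Neutrophil-like clusters took 10.0% of the sham UMIs and 12.3% of the UAC UMIs, and the 11 neutrophil markers listed, of 12, summed to 40927 and 63217 CPM over all clusters. The part of both in the rise of Oas1a was not tested. After Oas1a the largest ratios were those of Samhd1 (0.46), Gbp2 (0.43) and Ifit2 (0.39), and the most negative those of Rtp4 (-0.40), Oas2 (-0.32) and Mx2 (-0.31), none of them called.

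For miR-330 against UAC, a comparison that shares the UAC library with the previous one, 6 of 39 members were called higher, against 9.37% of all 15917 genes, and 1 was called lower, against 2.81%. The median log2 ratio was 0.24 for the members and 0.13 for all genes, with 27 members above 0 and 12 below. Centred on that median of all genes, 3 members, Ifit1, Ifit2 and Rsad2, were called higher and 1 lower (all genes 5.1% and 4.62%), so Psmb8, Adar and Herc6 lost their calls, and on the deposited scale 18 and 1 were called (all genes 24.6% and 1.19%). Ifit2 rose from 12.4 (11.7 to 13.1) to 22.7 (21.8 to 23.7), a log2 ratio of 0.87 (0.77 to 0.98). Its relative Ifit1 rose from 2.76 to 4.61 (0.74, 0.51 to 0.96), whereas the neighboring Ifit3 was at -0.14 and not called. Rsad2 rose from 5.86 to 9.65 (0.72, 0.57 to 0.87), and Psmb8 rose from 3.59 to 5.84 (0.70, 0.50 to 0.90). The editing enzyme gene Adar rose from 17.8 to 28.6 (0.69, 0.60 to 0.77), and Herc6 rose from 41.8 to 66.8 (0.68, 0.62 to 0.73). With the same cell classes and the T and NK-like clusters weighted equally, Adar and Herc6 were not called, while Ifih1, Oas2, Usp18, Dtx3l and Xaf1 were called higher (all genes 8.59% and 2.31%). That setting left out the unnamed cluster miR-330 8, where Adar and Herc6 were highest in that library. Ifitm3 fell from 41.6 (40.3 to 43.0) to 13.7 (12.98 to 14.5), a log2 ratio of -1.60 (-1.69 to -1.51), and its level in the miR-330 library was also apart from and below that of sham, 32.9 (31.6 to 34.2). The neutrophil markers summed to 63217 in UAC and 44293 in the miR-330 library, and within the neutrophil-like clusters the ratio of Ifitm3 was -1.44 (-1.55 to -1.32). The related Ifitm1 and Ifitm2 were not called in this comparison, at 138, 226 and 241 and at 206, 244 and 209.9.

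**Figure D3:**
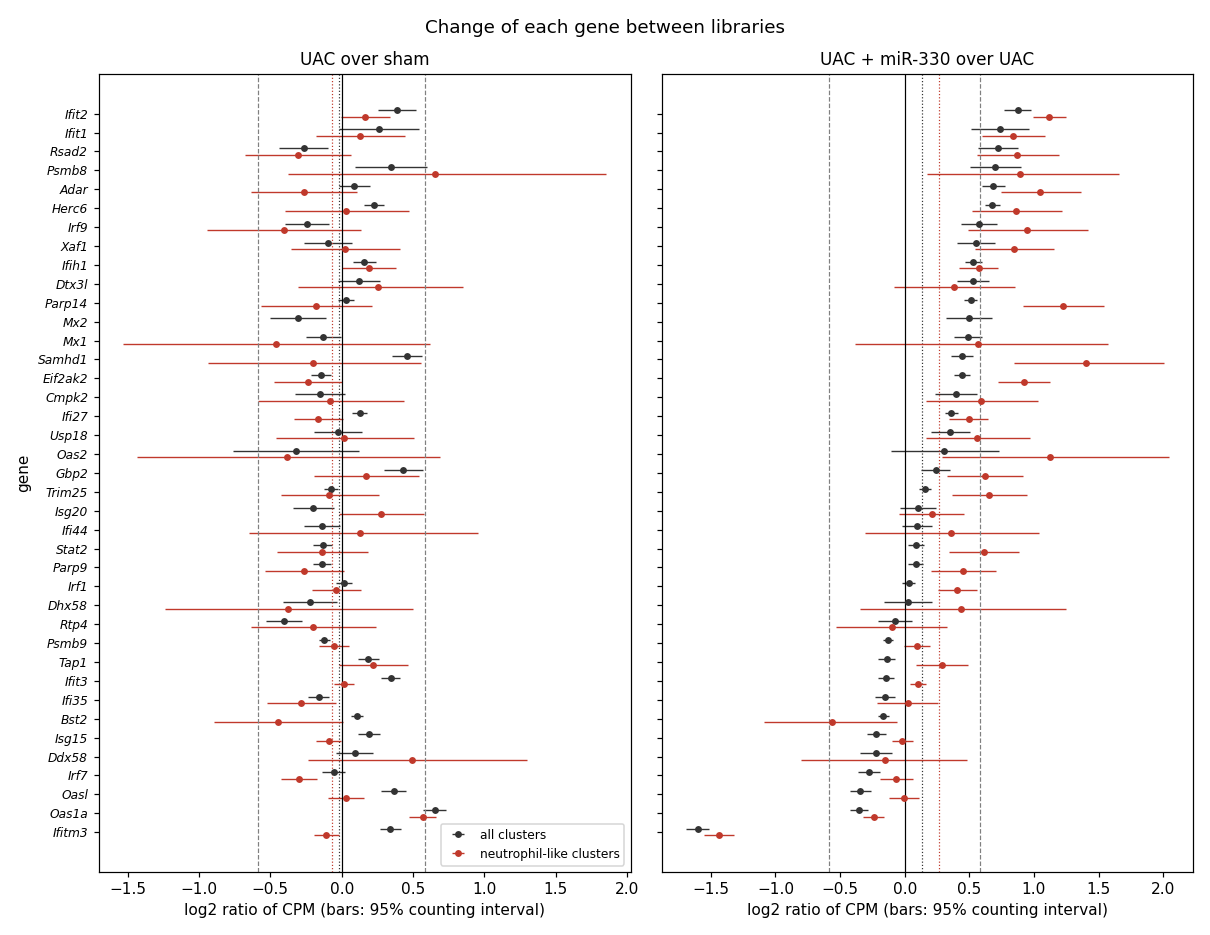
Log2 ratio of each member between libraries, over all clusters and within the neutrophil-like clusters. Over all clusters Oas1a was at 0.65 for UAC against sham and Ifitm3 at -1.60 for miR-330 against UAC.

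Role groups differed in the size of their ratios for miR-330 against UAC. The median log2 ratio was 0.51 for ISG15 conjugation and ADP-ribosylation, 0.40 for antiviral effectors, 0.23 for the IFIT and IFI genes, 0.16 for RNA sensors, 0.09 for signal transducers and -0.13 for antigen processing. For UAC against sham the same medians were 0.12, -0.13, 0.19, 0.09, -0.06 and 0.19. With 3 to 11 genes per group and 1 library per condition, differences between the groups were not tested.

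Within the neutrophil-like clusters, 38 members could be compared for UAC against sham, and none was called higher, against 1.48% of genes, or lower, against 7.48%, while centring on all genes gave 1 and 0 (all genes 2.17% and 6.51%), the deposited scale 1 and 0 (all genes 4.59% and 5%) and leaving out the neutrophil markers 1 and 0 (all genes 1.75% and 7.13%). The member called under each of these other settings was Oas1a. On the main scale the median was -0.08 for the members and -0.07 for all genes. Over the whole class, the genes of the peak clusters were close between libraries for Ifit3, at 349.5, 354 and 379.6, and Isg15, at 245, 230.1 and 227, while Oas1a was at 171, 253 and 215. In the peak clusters alone Ifit3 and Isg15 were apart between sham and UAC, and the share of the peak cluster in the class was 39.1% in sham and 19.4% in UAC. Without the peak clusters 11 members were called higher in UAC and none lower (all genes 8.9% and 11%), with a median of 0.44 beside -0.03 for all genes. Sham then keeps the Ngp-high cluster alone while UAC keeps 2 clusters, so nothing is read from this count. When miR-330 was set against UAC, 13 of 38 members were called higher, against 15.9% of genes, and 1 lower, against 1.28%, with a median of 0.53 beside 0.27 for all genes. Samhd1 rose from 3.24 to 8.62 (1.40, 0.84 to 2.005), Parp14 rose from 11.3 to 26.4 (1.22, 0.92 to 1.54) and Ifit2 rose from 66.1 to 143 (1.12, 0.99 to 1.246). Ifitm3 fell from 214 to 79.0 (-1.44, -1.55 to -1.32). The neutrophil markers themselves summed to 388383, 397221 and 336226 in these clusters, so a smaller part of the miR-330 neutrophil-like RNA was marker RNA, and the part of this in the rises was not tested. Leaving out those markers 10 members were called higher and 2 lower (all genes 9.61% and 2.27%), and centring on all genes gave 8 and 2 (all genes 5.55% and 4.28%). Leaving out the peak clusters gave 5 and 2 (all genes 16.4% and 1.39%), and the deposited scale gave 21 and 1 (all genes 31.9% and 0.57%). Samhd1 was not called without the peak clusters, while Parp14 and Ifit2 were still called higher.

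Within the B-like clusters, UAC against sham gave 1 member higher of 38, against 2.18% of genes, and 1 lower, against 2%, on the deposited scale 2 and 0 (all genes 5.53% and 1.11%), with medians of 0.01 for members and 0.01 for all genes. Ifit3 rose from 2.36 to 6.24 (1.40, 1.01 to 1.81), and Xaf1 fell from 6.89 to 4.54 (-0.60, -0.91 to -0.29). For miR-330 against UAC, 6 of 39 were higher, against 6.72%, and 2 lower, against 3.67%, on the deposited scale 13 and 2 (all genes 19.3% and 1.57%), with medians of 0.09 and 0.06. Adar rose from 20.5 to 33.8 (0.72, 0.58 to 0.86) and Ifit2 rose from 4.54 to 7.63 (0.75, 0.46 to 1.05), and the largest ratio, that of Ifit1 (1.80, 0.78 to 3.09), rested on 9 and 37 UMIs. Ifit3 fell from 6.24 to 2.91 (-1.10, -1.45 to -0.76) and Ifitm3 fell from 2.66 to 0.978 (-1.43, -2.05 to -0.86). Both of these genes are high in neutrophil-like clusters, and S100a8, the abundant neutrophil gene, was at 533, 959 and 360.3 in the B-like clusters. The part of neutrophil RNA in those falls, and in the rise of Ifit3 in UAC against sham, was not tested.

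In the chondrocyte-like cluster 29 members could be compared for UAC against sham, with 2 higher, against 7.1% of genes, and 1 lower, against 1.01%, centred on all genes 1 and 1 (all genes 4.23% and 1.83%), and medians of 0.19 and 0.15. Irf1 rose from 48.9 to 99.0 (1.02, 0.84 to 1.199), Ifitm3 rose from 64.1 to 103 (0.68, 0.51 to 0.85) and Bst2 fell from 18.2 to 8.86 (-1.03, -1.51 to -0.58). Centred on all genes, Ifitm3 lost its call. With miR-330 against UAC none of 24 was higher, against 5.89%, and 4 were lower, against 5.61%, on the deposited scale 2 and 2 (all genes 15% and 2.82%), with medians of -0.25 and 0.01. Psmb9 fell from 10.5 to 3.91 (-1.41, -2.19 to -0.72), Bst2 fell from 8.86 to 4.08 (-1.10, -1.88 to -0.40) and Ifitm3 fell from 103 to 55.2 (-0.89, -1.09 to -0.70). Irf1, called in both comparisons and added for that after its values were seen, fell from 99.0 to 61.0 (-0.70, -0.89 to -0.51). On the deposited scale Irf1 and Bst2 lost these calls, while Ifitm3 and Psmb9 were still called lower. S100a8 in this cluster went the same way as Ifitm3, at 477, 1627 and 335, and the 11 neutrophil markers summed to 1249.7, 4349.7 and 849.6. In the neutrophil-like clusters S100a8 was at 129445, 119836 and 101751 and Ifitm3 at 231, 214 and 79.0, and the part of neutrophil RNA in the Ifitm3 values of the chondrocyte-like cluster was not tested.

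In the macrophage-marker cluster, UAC against sham gave 2 of 36 members higher, against 2.19% of genes, and 3 lower, against 6.14%, centred on all genes 3 and 1 (all genes 3.43% and 4.75%), on the deposited scale 4 and 1 (all genes 5.91% and 3.53%), with medians of -0.18 and -0.08. Samhd1 rose from 77.1 to 128 (0.73, 0.52 to 0.94) and Herc6 rose from 21.0 to 33.2 (0.66, 0.26 to 1.08). Isg15 fell from 25.4 to 11.6 (-1.13, -1.61 to -0.66), Ifitm3 fell from 13.9 to 7.16 (-0.95, -1.59 to -0.32) and Ifit3 fell from 21.6 to 13.5 (-0.68, -1.16 to -0.20). Under centring and on the deposited scale Isg15 alone was called lower, so Ifitm3 and Ifit3 lost their calls. In miR-330 against UAC 5 of 35 were higher, against 10.1%, and 3 lower, against 2.22%, centred 2 and 4 (all genes 5% and 4.22%), on the deposited scale 10 and 3 (all genes 24.9% and 0.975%), with medians of 0.18 and 0.18. Parp14 rose from 35.6 to 67.0 (0.91, 0.67 to 1.16), Gbp2 rose from 41.6 to 76.7 (0.88, 0.66 to 1.11) and Eif2ak2 rose from 30.7 to 51.3 (0.74, 0.47 to 1.01). Centred on all genes, Eif2ak2 lost its call. In the other direction, Oasl fell from 120.5 to 63.0 (-0.94, -1.12 to -0.75), Irf7 fell from 65.6 to 35.9 (-0.87, -1.12 to -0.62) and Ifitm3 fell from 7.16 to 1.84 (-1.91, -3.07 to -0.98). These calls went in both directions within a single cluster. The 11 neutrophil markers summed to 6419.6, 6195 and 4054 in it and S100a8 was at 3169, 2847 and 1962, and the part of neutrophil RNA in the falls was not tested.

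The cycling-like clusters were sham 3, UAC 5 and miR-330 12 and 16. Clusters with cycling and erythroid markers (sham 13, UAC 11 and miR-330 11) held 14.6%, 14.9% and 15.8% of all UMIs and were not compared as a class. In the cycling-like clusters, UAC against sham gave 5 of 37 members higher, against 2.43% of genes, and 1 lower, against 0.868%, on the deposited scale 7 and 0 (all genes 8.54% and 0.421%), with medians of 0.05 and 0.09. Ifit3 rose from 2.27 to 6.41 (1.48, 0.87 to 2.17), Ifi27 rose from 27.8 to 65.2 (1.23, 1.05 to 1.42) and Isg15 rose from 3.60 to 6.996 (0.95, 0.42 to 1.51), while Isg20 fell from 5.004 to 2.58 (-0.94, -1.62 to -0.31). For miR-330 against UAC 4 of 37 were higher, against 5.63%, and 1 lower, against 2.48%, on the deposited scale 10 and 0 (all genes 17.7% and 0.929%), with medians of 0.04 and 0.06. Usp18 rose from 4.08 to 7.33 (0.84, 0.32 to 1.39), Dtx3l rose from 8.16 to 14.5 (0.82, 0.46 to 1.204) and Adar rose from 21.1 to 33.9 (0.68, 0.45 to 0.92), and Ifit3 fell from 6.41 to 3.66 (-0.80, -1.39 to -0.24). The 11 neutrophil markers summed to 3177, 3473 and 2673 in the cycling-like clusters and S100a8 was at 1168, 1202 and 847. The part of neutrophil RNA in the changes of Ifit3 and Isg15 was not tested. In the T and NK-like clusters, which could be compared for miR-330 against UAC alone, 4 of 35 members were higher, against 11.2%, and none lower, against 2.24%, centred on all genes 1 and 0 (all genes 5.68% and 5.35%), with medians of 0.02 and 0.18. Ifih1 rose from 11.9 to 29.3 (1.29, 0.63 to 2.02), Oasl rose from 14.6 to 29.3 (0.99, 0.38 to 1.66) and Usp18 rose from 17.3 to 31.5 (0.85, 0.27 to 1.46). Centred on all genes, Ifih1 alone was called, so Oasl and Usp18 lost their calls. Usp18 also lost its call on the scale without mitochondrial, hemoglobin, immunoglobulin and ribosomal protein genes. In the miR-330 cluster 12 of 14 T and NK markers met the rule for names, but so did 8 of 10 mast and basophil markers, which summed to 2163 CPM. In UAC 17 these were 11 of 14 and none of 10, with a sum of 30.6, and the part of this difference in the calls was not tested.

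Other genes of the pathway, from 6 lists of 92 names of which 75 were listed in the tables, were read beside the members. Of 12 interferon ligand genes Ifng, Ifnk and Ifnl1 were listed, and the type I genes Ifna1, Ifna2, Ifna4, Ifna5, Ifna11, Ifnb1 and Ifne were not listed by that name in the tables used. Ifng, the type II interferon gene, had 3, 18 and 17 UMIs, all of those in UAC and the miR-330 library in the T and NK-like cluster, and no sham cluster was named T and NK-like. As the only ligand gene compared it was called higher in UAC against sham, with a ratio of 2.15 (0.55 to 4.74) that has a wide interval, and was not called in miR-330 against UAC. The receptor genes Ifnar1, Ifngr1 and Ifngr2 were at 93.0, 105 and 113, at 90.01, 128 and 119.8 and at 58.9, 59.2 and 53.7, and none of 6 receptor genes was called in either comparison, against 5.85% and 9.37% of all genes higher and 4.86% and 2.81% lower. Ifnar2 was highest in the peak clusters, at 164, 268 and 257. Of the receptor kinases and STATs, Jak1 was at 283, 305 and 416, Stat3 at 96.1, 114 and 141 and Jak2 at 70.6, 95.5 and 116, with none of 4 called, against the same shares. Among negative regulators Pias1, Irf2 and Ptpn2 were at 178, 195 and 248, at 172, 164 and 213 and at 120.5, 126 and 132, and none of 6 was called in either comparison, again against those shares.

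Of 13 genes that induce interferon, 2 were called higher in UAC against sham, against 5.85% of all genes, and 2 in miR-330 against UAC, against 9.37%, and none lower, against 4.86% and 2.81%. Tbk1, Irf3 and Myd88 had the most UMIs, at 89.3, 107 and 112, at 88.0, 80.9 and 77.2 and at 36.3, 40.3 and 39.8. Irf8, a factor of monocytes, dendritic cells and B cells, rose from 24.6 to 37.0 (0.59, 0.51 to 0.67) in UAC, and the endosomal RNA receptor Tlr7 rose from 4.24 to 6.95 (0.71, 0.52 to 0.91). In UAC the highest cluster of Irf8 was UAC 14 at 476, and Tlr7 was highest in the macrophage-marker cluster, at 75.0, 75.2 and 72.3. That cluster held 4.36% of the sham UMIs and 6.33% of the UAC UMIs, and the part of this share in the rise of Tlr7 was not tested. In miR-330 against UAC, Tlr3 rose from 1.09 to 1.93 (0.82, 0.47 to 1.19) and Tlr9 rose from 0.993 to 1.72 (0.79, 0.41 to 1.17), both at low levels.

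Among other interferon-induced genes, 7 of 39 were called higher, against 5.85% of all genes, and 1 lower, against 4.86%, for UAC against sham. Their median log2 ratio was 0.07, beside -0.02 for all genes. B2m, Ifi30 and Psme1 had the most UMIs, at 1795, 2101 and 1586, at 292, 319 and 251 and at 261, 249.6 and 228. Cxcl10, a chemokine gene, rose from 1.45 to 9.50 (2.70, 2.42 to 3.00), and its UMIs lay in few clusters: the mast and basophil-like cluster of UAC at 215 and the erythroid-like cluster of the miR-330 library at 326, with 23.6, 16.4 and 19.4 in the macrophage-marker cluster. That erythroid-like cluster also had 5 plasma cell markers enriched, and the immunoglobulin gene Igh-6 was among its leading genes. Ifit1bl, the near copy of Ifit1, rose from 22.6 to 40.1 (0.83, 0.74 to 0.91) and was at 532, 1319.6 and 1367 in the peak clusters. Slfn4 rose from 145 to 222 (0.61, 0.58 to 0.64) and was at 2654, 4951 and 4904 in the peak clusters. Ifitm1, at 946, 1033 and 1331 there, rose from 138 to 226 (0.71, 0.67 to 0.74). The neutrophil markers summed to 40927 in sham and 63217 in UAC, and their part in the rises of Ifit1bl, Slfn4 and Ifitm1 was not tested. Gbp6 rose from 0.348 to 0.810 (1.203, 0.57 to 1.91), Gbp4 rose from 1.73 to 2.61 (0.60, 0.29 to 0.91) and Oas3 rose from 0.657 to 1.13 (0.78, 0.29 to 1.30). Ube2l6, the ISG15-conjugating enzyme gene, fell from 10.7 to 6.86 (-0.64, -0.79 to -0.49). Between miR-330 and UAC 7 of 40 were higher, against 9.37% of all genes, and none lower, against 2.81%, with a median of 0.18, beside 0.13 for all genes. Gbp6 rose from 0.810 to 2.36 (1.54, 1.16 to 1.94) and stood at 19.6 and 57.8 in the T and NK-like clusters. Slfn5 rose from 31.0 to 62.0 (1.00, 0.94 to 1.06), Parp12 rose from 4.74 to 8.02 (0.76, 0.59 to 0.93) and Pml rose from 11.3 to 17.7 (0.64, 0.53 to 0.76). Znfx1 (0.63, 0.49 to 0.76) and Sp100 (0.60, 0.50 to 0.69) also rose, and Cxcl11, named after its values were seen, rested on 8 and 37 UMIs.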

How the data were processed

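The authors pooled 16 condyles into each of 3 libraries, and per the labels Cell Ranger 7.0, STAR and Seurat 4.0.1 were used, with the builds GRCh38 and mm10 listed for rat. The signal values deposited by the authors are mean counts per gene and cluster, in which the UMIs of a cluster share a divisor. Columns of log2 fold change and adjusted p-value, in which the authors compare a cluster with all others of its library, were not used. UMIs were recovered by dividing each column by its smallest positive value (tolerance 1e-06) and scaled to CPM, with exact Poisson 95% intervals. The libraries held 77668015, 92629658 and 97255383 UMIs. Clusters were named from markers of 19 cell classes (at least 3 markers, each enriched at least 2-fold with 10 UMIs and 50 CPM), but sham 5, with 2 enriched B markers, by 5 or more B markers at 50 CPM and 4-fold above the 3 clusters with least of them. Ratios had 0.5 UMI added. With 1 library per condition no test was made. All members were named in every library, and levels by cluster were given for the 2 members with most UMIs per role group and those with the largest called changes, and for 9 more after their values were seen. From the other pathway lists, the 3 genes with most UMIs and called genes with 100 UMIs or more were named. Members and lists were chosen with earlier results of these data known. Alternatives covered scale, centring, fold, UMI minimum, clusters and gene identifiers. Scripts were tested on simulated data and used Python 3.11.15, numpy 2.4.6, pandas 2.3.3, scipy 1.17.1 and matplotlib 3.10.9.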

Additional observations from a re-analysis of the deposited data

How the results depend on the processing

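Of 513 values from alternative settings, 413 stayed close to the value given in the text, 99 moved and 1 changed sign. No paired analysis was possible because each condition has 1 library of pooled rats.

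On the scale of the deposited mean counts, the median log2 ratio for UAC against sham was 0.21 for the members and 0.18 for all genes. Of the members 3 were called higher (all genes 10%). For miR-330 against UAC the medians were 0.48 and 0.37, with 18 higher (all genes 24.6%). In neutrophil-like clusters 1 member was higher for UAC (all genes 4.59%) and 21 for miR-330 (all genes 31.9%). In B-like clusters the UAC median was 0.21, beside 0.21 for all genes, with 2 higher and 0 lower (all genes 5.53% and 1.11%). The miR-330 median there was 0.33, beside 0.30 for all genes, with 13 higher (all genes 19.3%). The chondrocyte-like cluster then had 2 higher and 2 lower for miR-330 (all genes 15% and 2.82%). The macrophage-marker cluster had 4 higher and 1 lower for UAC (all genes 5.91% and 3.53%) and 10 higher for miR-330 (all genes 24.9%). Cycling-like clusters had 0 lower for UAC (all genes 0.421%), and 10 higher and 0 lower for miR-330 (all genes 17.7% and 0.929%).

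Centred on the median of all genes, miR-330 against UAC had a member median of 0.11 with 3 called higher (all genes 5.1%). Neutrophil-like clusters had 1 higher for UAC (all genes 2.17%), and 8 higher and 2 lower for miR-330 (all genes 5.55% and 4.28%). The chondrocyte-like cluster had 1 higher for UAC (all genes 4.23%). The macrophage-marker cluster had 1 lower for UAC (all genes 4.75%) and 2 higher for miR-330 (all genes 5%). The T and NK-like clusters had 1 higher for miR-330 (all genes 5.68%).

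A 2-fold limit left 0 members higher for UAC, against 2.46% of all genes, and 0 for miR-330, against 2.43%. A 1.2-fold limit gave 7 higher and 3 lower for UAC, against 12.1% and 13.7%, and 18 higher and 4 lower for miR-330, against 28.4% and 8.97%. With the classes named above weighted equally, 0 members were higher for UAC, against 2.9% of all genes. The miR-330 median was then 0.13, beside 0.13 for all genes. All other clusters were left out, among them the macrophage-marker cluster and the unnamed clusters. For miR-330, Adar and Herc6 then lost their calls, while Ifih1, Oas2, Usp18, Dtx3l and Xaf1 were called higher. Of all genes, 8.59% were then called higher and 2.31% lower.

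The last 3 alternatives were added after the data were seen. Without the neutrophil-like clusters, Oas1a was at -0.039 for UAC against sham, against 0.65 with them. Its sign changed, but it was not called, and a ratio this small is not read as a fall. The cause was not tested. That setting gave 2 members higher for UAC (all genes 6.82%) and a median of 0.12 for miR-330, beside 0.10 for all genes. Scaled without neutrophil markers, neutrophil-like clusters had 1 member higher for UAC (all genes 1.75%) and 2 lower for miR-330 (all genes 2.27%). Without the peak cluster, the neutrophil-like median was 0.44 for UAC with 11 higher, against 8.9% of all genes. For miR-330 it was 0.22, beside 0.28 for all genes, with 5 higher and 2 lower (all genes 16.4% and 1.39%).

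The summed level of the peak cluster stood above the rest by 1.95, 2.53 and 2.47 on the log2 scale in sham, UAC and the miR-330 library. Scaled without mitochondrial, hemoglobin, immunoglobulin and ribosomal protein genes it was 1.70, 2.30 and 2.28. The median over members was 0.82, 0.76 and 1.06. Without the most abundant member it was 1.58, 2.05 and 2.07.

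With 1 library per condition, differences between rats, AAV doses and preparations cannot be told apart from the condition. The Poisson intervals cover counting alone and are narrow at these depths. The count of cells per cluster is not in the tables, so levels cannot be given per cell. How reads of near-identical genes (Ifitm1, Ifitm2 and Ifitm3, the Oas1 family, Ifit1 and Ifit1bl, Mx1 and Mx2) were divided is not shown in the tables. Whether members took part in the clustering is not in the tables, and it was not tested that clusters of the same name hold the same cells.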
